A study of Homo sapiens with 9 samples.

Results

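MALAT1, NEAT1, KCNQ1OT1, MIAT, TUG1, NORAD and OIP5-AS1 are long noncoding RNAs that are often grouped as abundant RNAs of the nucleus. The 7 were chosen by name from a table of 60829 genes, and each has a single row in it. The RNA came from H1, an established human embryonic stem cell line, in which a knockout clone (chrX-KO_H1) lacks an element on chromosome X that the labels call HERVHlin and a control clone (chrX-ctrl_H1, genotype WT) keeps it. Libraries of total RNA depleted of ribosomal RNA were made 5 times for the knockout clone and 4 times for the control clone. Each group is 1 clone, and its libraries come from successive passages that count as technical replicates in the series design and as biological ones in the sample titles, so every p-value measures only the spread between passages. A growth label gives mTESR, a stem cell medium, on vitronectin, whereas a treatment label of all libraries calls the cells differentiated. The study set the knockout clone against the control clone to find differently expressed genes, and the same contrast is given here for the 7 RNAs. In such bulk libraries, fewer cells of a type and less RNA per cell cannot be told apart.

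MALAT1 gathers at nuclear speckles, the stores of splicing factors, and NEAT1 is the scaffold on which paraspeckles assemble. KCNQ1OT1 is an imprinted antisense transcript that silences neighbouring genes on its own chromosome, and MIAT is a spliced nuclear RNA known to bind splicing factors. TUG1 has been found in both nucleus and cytoplasm. NORAD and OIP5-AS1, which is also called Cyrano, are known mainly as cytoplasmic RNAs that bind Pumilio proteins and the microRNA miR-7. No fraction of the cell was measured separately here, so the word nuclear in the group's usual name was not tested, and for NORAD and OIP5-AS1 it goes against what is known of them.

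Total depth was 19838682 to 31192630 reads per library, of which protein-coding rows took 26.3% to 50.8% and the 7 RNAs together took 0.0547% to 0.190%. The 3 rows that the authors marked as knocked out summed to between 1283 and 2040 normalized counts in knockout libraries, against 3349 to 8405 in control libraries. These rows did not fall alike. The row that held most of the knockout sum had a log2 fold change of -0.68, and its libraries overlapped between the clones. The other rows fell much further, and their libraries did not overlap between the clones. Control 3 had the highest share of coding reads, 50.8%, and knockout 1 the highest share in rows with miRBase-style names, 31.4%. Of 8 embryonic stem cell markers, none averaged under 10 normalized counts, and their sum was 27709 to 42664 in knockout libraries and 33104 to 72150 in control libraries. Among markers of other types, PAX6, SOX1 and NEUROD1 of the neural list, SOX17, FOXA2, GATA4 and GATA6 of the endoderm list, TBXT, EOMES, HAND1 and MESP1 of the mesendoderm list, and CDX2, CGA, GATA3, ISL1 and TFAP2A of the trophectoderm and amnion list each averaged under 10. The remaining members of these lists were higher, with means of 1031 for TUBB3, 161 for KRT7, 48.1 for AFP and 13.7 for MIXL1 among them, and the neural list summed to 959 to 1347 in knockout libraries and 772 to 2486 in control libraries. The 6 fibroblast markers summed to 2878 to 4508 in knockout libraries and 3229 to 5812 in control libraries, mostly through THY1, which embryonic stem cells also carry, while COL3A1 and LUM averaged under 10.

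Several of these RNAs work through short repeated sequences, which are shown because they are the parts that the named binding partners are known to recognise. All were read on the sense strand of the longest GENCODE 29 transcript, on GRCh38, the build of the deposited table (hg38). NORAD (chromosome 20, 36045622 to 36050960, minus strand, 1 exon of 5339 bases) held 15 copies of the Pumilio element TGTANATA between transcript bases 761 and 4606. Of these copies, 10 read TGTATATA, 4 TGTAAATA and 1 TGTACATA. The element was in 5 of 5 NORAD windows of 1000 bases, and in 9.04% of 62764 such windows tiled over the longest transcripts of tested genes. KCNQ1OT1 held 9 copies, in 8 of 91 windows, NEAT1 6, in 5 of 22 windows, and TUG1 2, in 1 of 7 windows. OIP5-AS1 held 1, outside its 8 full windows, and MALAT1 and MIAT held 0. An example of each form in NORAD is given with the element in capitals.
NORAD, chr20:36050185-36050208: aaggcctgTGTATATAatatgaaa
NORAD, chr20:36049705-36049728: tcacatttTGTAAATAcctttttg
NORAD, chr20:36049495-36049518: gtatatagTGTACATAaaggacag

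MIAT (chromosome 22, 26646428 to 26676475, plus strand) held 7 copies of TACTAAC, the branch point sequence that the splicing factor SF1 binds. They lay between bases 5087 and 5893 of a transcript of 10143 bases, so that 1 of its 10 windows held the motif, against 2.11% of all windows. KCNQ1OT1 held 3 copies, in 3 of 91 windows, NEAT1 and NORAD held 1 each, and MALAT1, TUG1 and OIP5-AS1 held 0. In 3 of the MIAT sites the motif is in capitals.
MIAT, chr22:26671411-26671433: gattaaccTACTAACccagggct
MIAT, chr22:26672025-26672047: tgttcgatTACTAACccgtctaa
MIAT, chr22:26672174-26672196: ctctgactTACTAACccagcccc

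OIP5-AS1 (chromosome 15, 41283990 to 41309737, plus strand) is known for a site with long pairing to miR-7. The seed of miR-7-5p, bases 2 to 8, is in capitals in the RefSeq mature sequence below, and its match GTCTTCC occurred 3 times in OIP5-AS1. That match was in 2 of 8 OIP5-AS1 windows and in 8.06% of all windows. KCNQ1OT1 had 6 matches, in 5 of 91 windows, MIAT had 1, in 1 of 10 windows, and MALAT1, NEAT1, TUG1 and NORAD had 0. The OIP5-AS1 copy shown, with the seed match in capitals, also held a run of 13 bases complementary to miR-7-5p bases 11 to 23. The longest such run was 5 and 4 bases at the other OIP5-AS1 copies.
hsa-miR-7-5p (GRCh38.p14): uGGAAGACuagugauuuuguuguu
OIP5-AS1, chr15:41300575-41300599: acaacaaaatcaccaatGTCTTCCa

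MALAT1 and NEAT1 lie near each other on chromosome 11 and are known to end in an A-rich tract in place of a poly(A) tail, a feature known to protect their 3′ ends. The core AAAAAGCAAA, read from the end of NEAT1 so that its copy there is given by construction, was in 0.795% of all windows. MALAT1 (65497688 to 65506516, plus strand) had 2 copies. The copy in a stretch that begins at base 737 of the transcript gave the 1 of 8 full windows that held the core. The copy nearer to the 3′ end is shown and lies past those windows. Its stretch ends 343 bases before the end of the annotated transcript. NEAT1 (65422774 to 65445540, plus strand) had 1, at the very end of its transcript of 22743 bases and outside its 22 full windows. KCNQ1OT1 also had 2 copies, in 2 of 91 windows, and the other 4 RNAs had 0. The tract is in capitals.
MALAT1, chr11:65506083-65506126: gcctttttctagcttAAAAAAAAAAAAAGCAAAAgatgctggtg
NEAT1, chr11:65445515-65445540: gaaagagtgagcaggAAAAAGCAAAA

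Since the series title names the LIN28A/let-7 pathway, the transcripts were also searched for CTACCTC, the match to the let-7 seed. The mature RefSeq sequence of let-7a-5p is shown with its seed in capitals.
hsa-let-7a-5p (GRCh38.p14): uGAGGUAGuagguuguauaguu
KCNQ1OT1, a transcript of 91667 bases, had 8 matches, NEAT1 had 3, and MIAT and OIP5-AS1 had 1 each, while MALAT1, TUG1 and NORAD had 0. By windows these were 8 of 91 for KCNQ1OT1, 2 of 22 for NEAT1, 1 of 10 for MIAT and 1 of 8 for OIP5-AS1, against 6.95% of all windows. No match to any of the 5 motifs overlapped another in these RNAs. The single site of MIAT, the RNA with the smallest p-value of the 7 between the clones, is shown with the match in capitals.
MIAT, chr22:26665731-26665753: agctcattctcttttCTACCTCt

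As levels, the 7 RNAs spanned a wide range. Values are the authors' normalized counts, reads per gene divided by 1 size factor per library, and here they were further divided by the exonic length in GENCODE 29 so that genes can be set side by side. MALAT1 averaged 2716 ± 891 normalized counts per kb in the knockout clone (SD, n = 5) and 1883 ± 891 in the control clone (SD, n = 4). NORAD followed at 283 ± 44.5 in the knockout clone and 313 ± 91.8 in the control clone. Then came OIP5-AS1 at 109 ± 19.7 and 128 ± 27.5, TUG1 at 105 ± 9.5 and 117 ± 19.8, and MIAT at 84.2 ± 17.6 and 50.4 ± 19.7 normalized counts per kb, again knockout before control. NEAT1 averaged only 6.10 ± 2.00 per kb in the knockout clone and 5.91 ± 2.85 in the control clone, and KCNQ1OT1 0.390 ± 0.126 and 0.346 ± 0.182.

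Neighbours in this order did not overlap in any library for MALAT1 over NORAD, NORAD over OIP5-AS1, MIAT over NEAT1 and NEAT1 over KCNQ1OT1. OIP5-AS1 was above TUG1 in only 4 of 9 libraries, and these levels did not differ beyond their spread. TUG1 was above MIAT in 7 of 9 libraries, 3 of 5 of the knockout clone and 4 of 4 of the control clone, and the ranges overlapped. Among 26967 tested rows with an annotated length, MALAT1 ranked 71 by normalized counts, and NORAD, OIP5-AS1, TUG1 and MIAT lay above 91.0% to 95.9% of rows. NEAT1 lay above 60.6% of rows by normalized counts and above 9.31% per kb. KCNQ1OT1 lay above 31.6% by normalized counts, and per kb it ranked 6304 of the 6306 lncRNA rows. Per kb MALAT1 lay above 97.0% of rows, NORAD above 85.8%, OIP5-AS1 above 74.0%, TUG1 above 72.8% and MIAT above 62.6%. Among lncRNA rows alone, by normalized counts, NEAT1 lay above 92.1% and KCNQ1OT1 above 59.1%, and MIAT above 98.7%. How far the name abundant applied therefore depended on the scale, with MALAT1 high and KCNQ1OT1 low per kb. The level of NEAT1 is that of the whole gene, since the table does not separate its short and long isoforms. TUG1 is typed as protein-coding in the deposited table, and the other 6 as lncRNA.

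**Figure D1:**
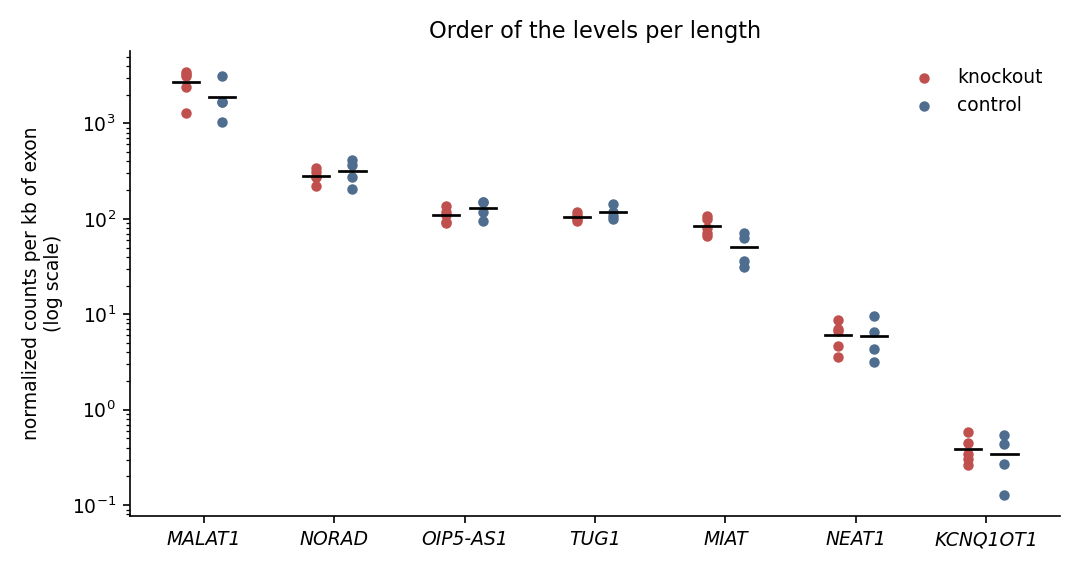
Normalized counts per kb of exon on a log axis for the 7 RNAs, ordered by their mean, with a point per library (knockout left, n = 5; control right, n = 4) and a line at the mean of each clone. MALAT1, with means of 2716 and 1883, lies above all others, OIP5-AS1, TUG1 and MIAT overlap, and NEAT1 and KCNQ1OT1 lie far below them.

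Between the clones, 0 of the 7 RNAs passed an adjusted p under 0.05 in limma over all 27777 tested rows, of which 150 (0.54%) passed. All 7 were tested. Of all tested rows 0.115% were called higher and 0.425% lower in the knockout clone. With edgeR 0 of the 7 passed, against 0.544% of all rows (0.112% higher, 0.432% lower), and with DESeq2 0 of the 7, against 2.05% of 38063 rows (0.525% higher, 1.53% lower). The authors' deposited table calls 0 of the 7 and 2.05% of its rows. Its values for the 7 are the same as those of the DESeq2 fit here, so it is not a separate test. Only MIAT had an unadjusted limma p under 0.05, with a higher value in the knockout clone, as had 3.58% of all tested rows in that direction, 5.05% in the other and 8.63% in either. The libraries of the clones were fully separated for 0 of the 7, against 3.95% of tested rows. With the replicate number as a block 43 rows (0.155%) passed (0.0504% higher, 0.104% lower), and 0 of the 7. The 7 log2 fold changes had a median of 0.10, against 0.0097 over all tested rows and 0.19 over the 6925 tested rows typed as lncRNA. Unless another source is named, log2 fold changes in the next paragraphs are on the log2(value + 1) scale. The added 1 weighs most on RNAs with few reads. For KCNQ1OT1 the log2 fold change was 0.29, against 0.30 with 0.5 added, 0.21 in edgeR and 0.18 in DESeq2.

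MIAT, the RNA with 7 SF1 motifs, measured 1251, 773, 844, 1175 and 939 normalized counts in knockout libraries 1 to 5, and 843, 432, 367 and 745 in control libraries 1 to 4. All but knockout 2 were above the highest control library, and the groups overlapped through it. The means were 997 ± 208 in the knockout clone (SD, n = 5) and 597 ± 233 in the control clone (SD, n = 4), a ratio of 1.67. The log2 fold change was 0.80 (SE 0.27, 95% interval 0.19 to 1.41, limma unadjusted p = 0.015, adjusted p = 0.39), and the authors' deposited table gives 0.74 (SE 0.28, adjusted p = 0.20). Over the 20 alternative settings it lay between 0.60 and 1.00, with a limma, edgeR or DESeq2 unadjusted p under 0.05 in each of the 20 and adjusted p from 0.16, with the replicate block, to 0.72. Control 2 and control 3 were its lowest libraries, and without control 3 it came to 0.60. MIAT was higher in the knockout library of 4 of 4 same-numbered pairs.

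MALAT1, of which deletion in mice is tolerated, had the most reads of the 7. It measured 28959, 30524, 11456, 27850.3 and 21119 normalized counts in knockout libraries 1 to 5, and 27704, 14926, 9125 and 14730 in control libraries 1 to 4. In 3 of 5 knockout libraries it was above every control library, while the library numbered 3 was the lowest of each clone. The log2 fold change of 0.56 (SE 0.38, 95% interval -0.29 to 1.41, limma adjusted p = 0.75) did not pass, and the interval leaves room for more than a doubling. MALAT1 was higher in the knockout library of 4 of 4 same-numbered pairs, and with the replicate number as a block the log2 fold change was 0.59 (95% interval 0.06 to 1.11, limma unadjusted p = 0.034, adjusted p = 0.41). It came to 0.31 without control 3 (limma unadjusted p = 0.43) and to 0.84 without control 1. As a share of reads MALAT1 took 0.0329% in control 3 (95% Wilson interval 0.0323% to 0.0336%) and 0.162% in knockout 4 (0.161% to 0.164%), and these intervals cover counting error only. Its residual SD of 0.62 on the log2 scale was at or above that of 85.2% of the 135 rows with a mean within a factor of 2 of its own.

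NEAT1, the paraspeckle scaffold, measured 153, 196, 81.5, 158 and 105 normalized counts in knockout libraries 1 to 5, and 220, 99.4, 72.0 and 147 in control libraries 1 to 4. These came from 64 to 212 reads per library, and the groups overlapped throughout. The log2 fold change was 0.10 (SE 0.36, 95% interval -0.70 to 0.90, limma adjusted p = 0.94), and its sign turned without control 2, control 3 or knockout 2. The ratio of MALAT1 to NEAT1 ran from 141 to 200.4 in knockout libraries and from 100.1 to 150.1 in control libraries.

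KCNQ1OT1, the imprinted antisense RNA (chromosome 11, 2608328 to 2699994, minus strand), measured 31.6, 28.2, 24.5, 53.1 and 41.3 normalized counts in knockout libraries 1 to 5, and 40.4, 24.9, 11.9 and 49.7 in control libraries 1 to 4. It had 13 to 71 reads per library and the largest SE of the 7, and the groups overlapped. The log2 fold change was 0.29 (SE 0.42, 95% interval -0.64 to 1.23, limma adjusted p = 0.86), and it came to -0.10 without control 3, its lowest library.

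TUG1 (chromosome 22, 30969245 to 30979395, plus strand), NORAD and OIP5-AS1 had values slightly lower in the knockout clone. TUG1, an RNA first named for its upregulation by taurine, measured 1056, 1003, 1209.9, 963 and 1111 normalized counts in knockout libraries 1 to 5, and 999, 1203, 1457 and 1075 in control libraries 1 to 4. It was the steadiest of the 7, its highest library 1.51 times its lowest. Knockout 4 was below every control library and the other knockout libraries lay within their range. The log2 fold change was -0.14 (SE 0.14, 95% interval -0.46 to 0.19, limma adjusted p = 0.82). NORAD, which holds Pumilio proteins through the elements printed above, measured 1480.0, 1822, 1635, 1181 and 1449 normalized counts in knockout libraries 1 to 5, and 1938, 1468, 2194 and 1093 in control libraries 1 to 4. The log2 fold change was -0.11 (SE 0.22, 95% interval -0.60 to 0.38, limma adjusted p = 0.90). Every knockout library lay within the range of the control libraries. OIP5-AS1, the RNA with the miR-7 site, measured 1373, 1745, 1502, 1179 and 1135 normalized counts in knockout libraries 1 to 5, and 1902, 1496, 1915 and 1192 in control libraries 1 to 4. Knockout 4 and knockout 5 were below every control library, and the log2 fold change was -0.22 (SE 0.19, 95% interval -0.65 to 0.21, limma adjusted p = 0.80). For each of these 3 RNAs the interval excludes a doubling and a halving. Without control 3 TUG1 stood at -0.03 and OIP5-AS1 at -0.13, and without control 4 OIP5-AS1 stood at -0.36. The signs of TUG1 and NORAD turned when libraries were scaled to coding reads (0.07 and 0.09), a scaling that moved the median of all tested rows by 0.21. Relative to that shift TUG1 stood at -0.14 and NORAD at -0.11. Both signs also turned under quantile normalization (0.03 and 0.09), where the median of all tested rows was 0.012. In the fit of rows averaging 50 or more normalized counts, the median of those rows was -0.064. Whether TUG1 and NORAD were lower than rows of like abundance was not tested.

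**Figure D2:**
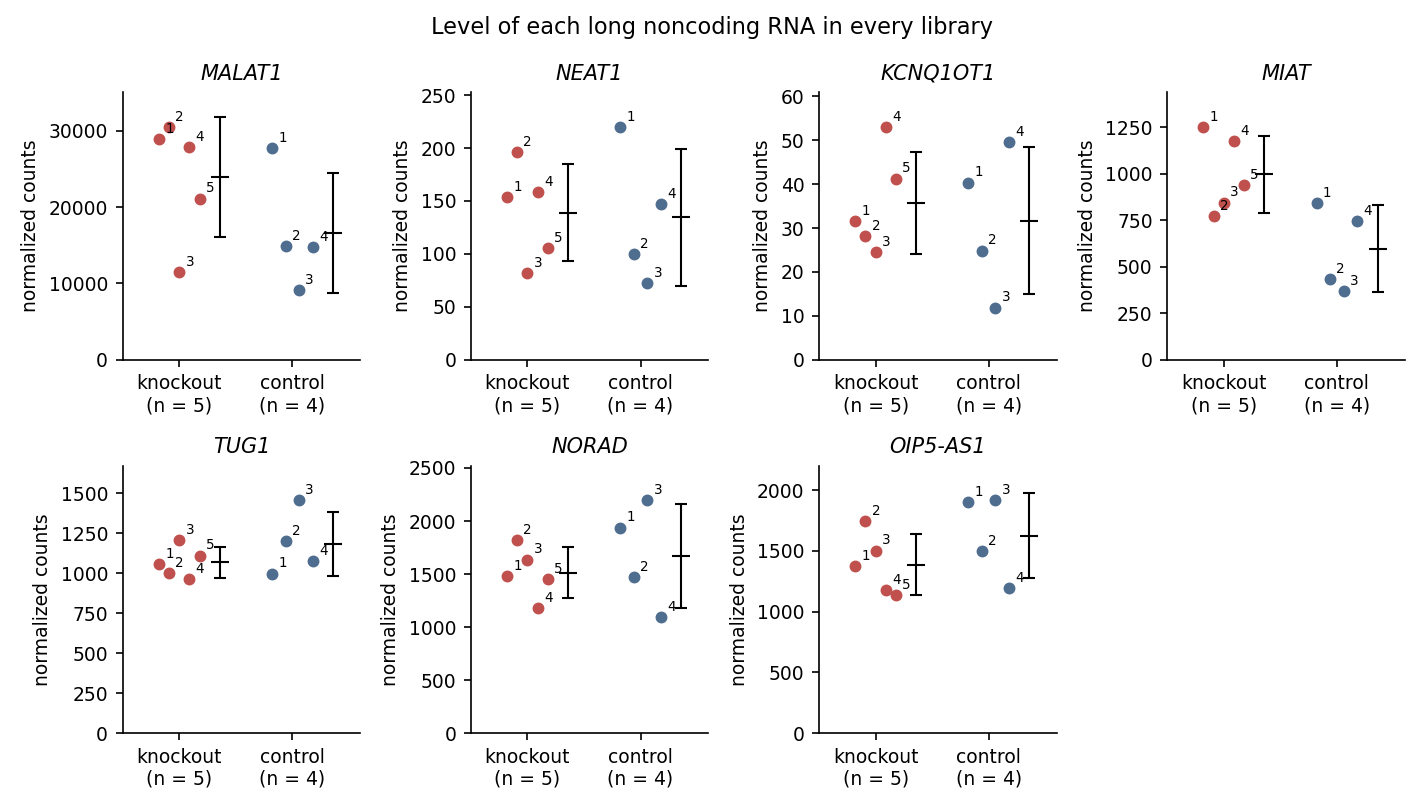
Normalized counts of each RNA in every library, with points numbered by replicate (knockout left, n = 5; control right, n = 4) and the mean ± SD beside them. The clones overlap for all 7 RNAs, and for MIAT 4 of 5 knockout libraries lie above the highest control library.

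**Figure D3:**
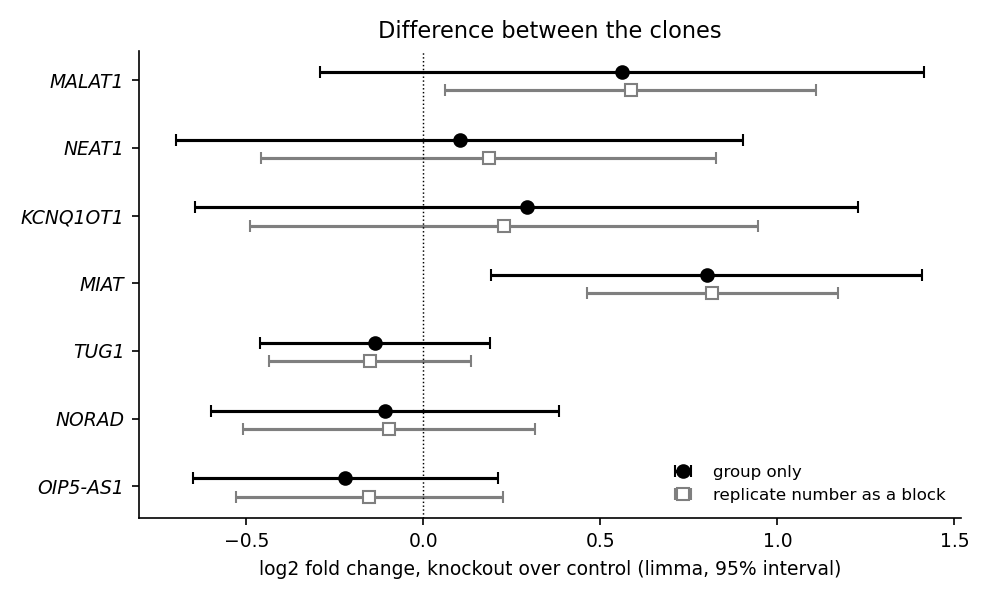
Log2 fold change of knockout over control with its 95% interval from limma, with the group alone (filled) and with the replicate number as a block (open). MIAT is at 0.80 (0.19 to 1.41), and the intervals with the group alone include 0 for the other 6.

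Across libraries the 7 RNAs fell into 2 sets, which were separated after their values were seen and are a description of 9 libraries that share a preparation. Profiles were compared by the root mean square difference of log2(value + 1) values, each centred on its own mean over the 9 libraries. NORAD and OIP5-AS1 differed by 0.13, the smallest difference among the 21 pairs, and each differed from TUG1 by 0.27. MALAT1 and NEAT1 differed by 0.30, and KCNQ1OT1 and MIAT by 0.42, while KCNQ1OT1 and NORAD differed by 0.86, the largest. The set of MALAT1, NEAT1, KCNQ1OT1 and MIAT was loose, with a difference of 0.52 between MALAT1 and KCNQ1OT1. That is close to the smallest difference between the sets, 0.59 for NEAT1 and OIP5-AS1. In control 3 the values were -1.06 for MALAT1, -0.83 for NEAT1, -1.33 for KCNQ1OT1 and -1.06 for MIAT, but 0.39 for TUG1, 0.50 for NORAD and 0.39 for OIP5-AS1.

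The level of coding rows differed in its relation to these sets. In each library the median centred value was taken over the 1713 coding rows that averaged 1000 or more normalized counts. It was 0.69 in control 3, 0.24 in knockout 3 and -0.30 in knockout 4. The centred value had the sign of that median in 8 of 9 libraries for TUG1, 7 for NORAD and 8 for OIP5-AS1. It had that sign in 2 of 9 libraries for MALAT1, 2 for NEAT1, 0 for KCNQ1OT1 and 3 for MIAT. The part of this shared movement in the clone differences of these RNAs was not tested. Without both libraries numbered 3, an alternative chosen after the values were seen, MALAT1 stood at 0.56, MIAT at 0.65, NEAT1 at 0.02, KCNQ1OT1 at 0.02, TUG1 at -0.08, NORAD at 0.0059 and OIP5-AS1 at -0.17 on the log2 scale, with 0 called.

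**Figure D4:**
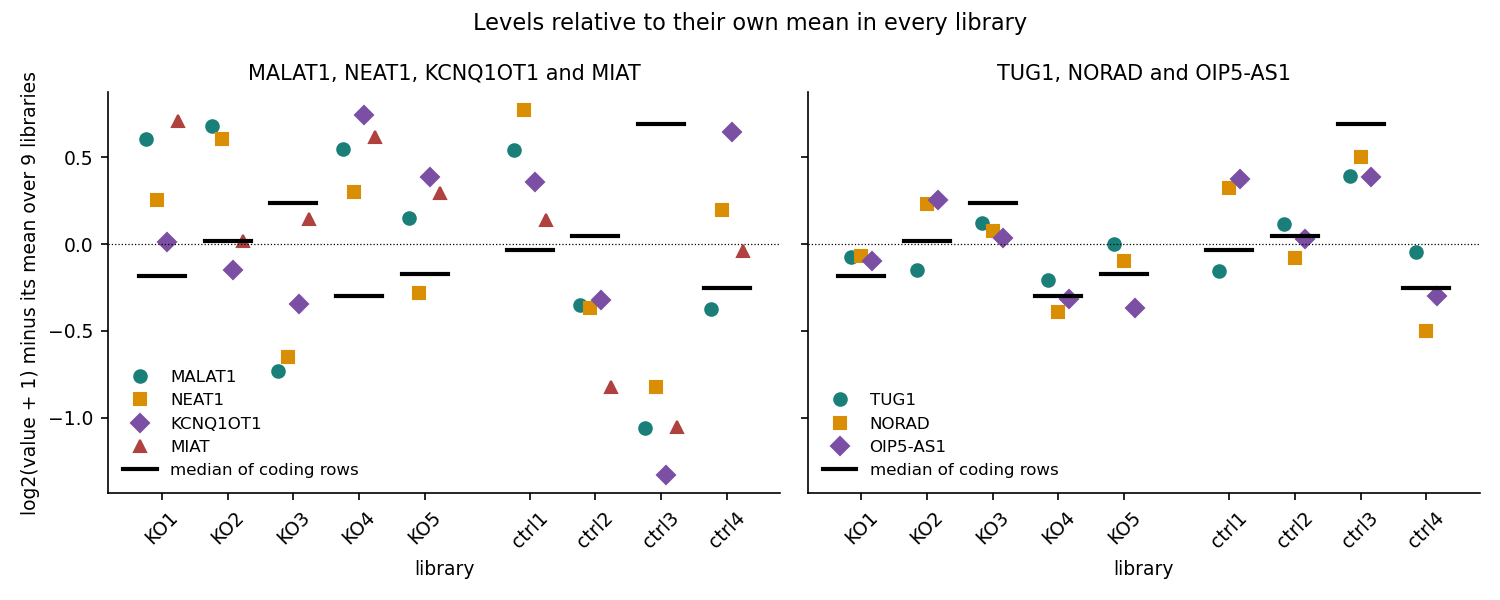
Log2(value + 1) of each RNA minus its own mean over 9 libraries (points; knockout libraries left, control libraries right), with the median of 1713 coding rows as a black bar. In control 3 the bar is at 0.69, MALAT1, NEAT1, KCNQ1OT1 and MIAT lie between -1.33 and -0.83, and TUG1, NORAD and OIP5-AS1 lie between 0.39 and 0.50.

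The genes whose profiles were most like each RNA were sought among 12304 other tested rows with a symbol that averaged 100 or more normalized counts. For NORAD they were SH3GLB1 (root mean square difference 0.028), IGLON5 (0.050) and TVP23C-CDRT4 (0.056), for OIP5-AS1 IFT20 (0.048), CCNB1IP1 (0.063) and SOCS4 (0.064), and for TUG1 GFM2 (0.047), KIF20B (0.050) and CHD8 (0.058), all coding. The 3 nearest to MALAT1 were the lncRNA RP11-380G5.2 (0.24), the small nucleolar RNA SNORD15A (0.25) and EPHA4 (0.25). Those nearest to NEAT1 were the lncRNA RP11-170N16.3 (0.17), an unnamed small nucleolar RNA (0.22) and RP11-380G5.2 (0.22). KCNQ1OT1 was nearest to GRIA1 (0.13), LINC01088 (0.14) and CTC-490E21.11 (0.14), and MIAT to TARBP1 (0.18), the processed pseudogene RPS15AP10 (0.18) and ANKRD26 (0.21). The median difference over these rows was 0.30 for TUG1 and 0.83 for KCNQ1OT1.

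Transcripts of genes for proteins that these RNAs work with also showed 0 calls, and no protein was measured. Of 31 tested rows for 30 paraspeckle protein genes, 0 passed in limma, against 0.54% of all tested rows. Their median log2 fold change was -0.06, against 0.0097 over all tested rows and -0.064 over rows averaging 50 or more normalized counts. Of the 31 rows, 1 had an unadjusted limma p under 0.05 (FAM98A, -0.68, SE 0.24), against 8.63% of all tested rows. The most abundant were HNRNPA1 at -0.18 (SE 0.25), HNRNPK at -0.17 (SE 0.28), MATR3 at 0.05 (SE 0.21) and NONO, a core protein of paraspeckles, at -0.06 (SE 0.23). Of 26 genes for nuclear speckle proteins, 0 passed and 0 had an unadjusted p under 0.05, against the same shares of all tested rows. Their median was -0.08, and SRRM2, a large speckle scaffold protein, stood at 0.05 (SE 0.14). The splicing factors SF3B1, at 0.10 (SE 0.15), SRSF3, at -0.25 (SE 0.32), and DDX39B, at -0.18 (SE 0.19), followed it in abundance. The 7 genes for processing and stability of the MALAT1 3′ end had a median of -0.25 with 0 passing, among them ELAC2, the nuclease that cuts tRNA 3′ ends, at -0.25 (SE 0.19), and METTL16, which binds the MALAT1 triple helix, at -0.06 (SE 0.16). All 7 had negative log2 fold changes, within their spread.

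The 8 genes for NORAD-binding proteins had 0 calls and a median of -0.20. PUM2, a Pumilio repressor, measured 1034 ± 87.8 normalized counts in the knockout clone (SD, n = 5) and 1206 ± 259 in the control clone (SD, n = 4), with a log2 fold change of -0.20 (SE 0.16). The 6 OIP5-AS1 partners had 0 calls and a median of 0.10. AGO2, an Argonaute protein that carries microRNAs, stood at 0.20 (SE 0.15). ZSWIM8, the ligase adaptor through which OIP5-AS1 is known to direct decay of miR-7, stood at 0.32 (SE 0.17), and ELAVL1, the RNA-binding protein HuR, at 0.01 (SE 0.28). Of 4 tested splicing factors that bind MIAT, 0 passed, with a median of -0.11. SF1 stood at -0.09 (SE 0.16), and QKI, which binds a related motif, at -0.16 (SE 0.19).

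In the imprinted domain of KCNQ1OT1, 9 of 15 listed symbols were tested and 0 passed, with a median of -0.40. Of the 9, 3 had an unadjusted limma p under 0.05, all lower in the knockout clone, against 8.63% of all tested rows (5.05% lower). NAP1L4, a histone chaperone and the most abundant of the 9, stood at 0.02 (SE 0.14), and TSSC4 at -0.40 (SE 0.31). The 3 were CD81 (-0.48, SE 0.16), a tetraspanin, CARS1 (-0.44, SE 0.18), a cysteine tRNA synthetase, and PHLDA2 (-0.87, SE 0.37), a growth-restraining imprinted gene. Their limma adjusted p ran from 0.37 to 0.55. The libraries of CD81 did not overlap between the clones, as was so for 3.95% of all tested rows, while those of CARS1 and PHLDA2 overlapped. CDKN1C, the cell cycle inhibitor at the centre of the domain, measured 60.9 ± 26.9 normalized counts in the knockout clone (SD, n = 5) and 101.8 ± 51.8 in the control clone (SD, n = 4), with a log2 fold change of -0.69 (SE 0.40, limma adjusted p = 0.69). The 9 genes for Polycomb, G9a and DNA methyltransferase proteins linked to TUG1 or KCNQ1OT1 had 0 calls and a median of -0.02. EHMT2, the methyltransferase G9a, stood at -0.02 (SE 0.21), and EZH2, the Polycomb methyltransferase, at 0.34 (SE 0.22).

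Genes that overlap the 7 RNAs or lie within 50 kb gave 52 entries in the table. Of these 25 were tested and 0 passed, against 0.54% of all tested rows. An unadjusted limma p under 0.05 was found for 1, against 8.63% of all tested rows. That 1 was RP3-430N8.11, a lncRNA opposite TUG1 that shares 546 exonic bases with it, at 26.2 ± 8.22 normalized counts in the knockout clone (SD, n = 5) and 72.6 ± 48.4 in the control clone (SD, n = 4), with a log2 fold change of -1.31 (SE 0.40, limma adjusted p = 0.30). The sources used here do not say whether counting used the strand, so reads of such overlapping pairs may be divided between them. MORC2, a silencing factor that starts 947 bases from TUG1 on the opposite strand, stood at -0.31 (SE 0.22), and OIP5, which overlaps OIP5-AS1, at -0.23 (SE 0.26). KCNQ1, the potassium channel gene that KCNQ1OT1 lies within, averaged 18.6 ± 4.63 normalized counts in the knockout clone and 18 ± 5.78 in the control clone, at 0.06 (SE 0.33). FRMD8 beside NEAT1 stood at -0.02 (SE 0.23). NUSAP1, a spindle protein gene beside OIP5-AS1, stood at 0.26 (SE 0.22), and EPB41L1 near NORAD at -0.26 (SE 0.26).

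A comparison list of other well known long noncoding RNAs, with 29 tested rows, also had 0 calls. Its median was -0.23, and 3 rows had an unadjusted limma p under 0.05, for CYTOR, LINC-ROR and 1 of the duplicate rows of RMRP, each with a lower value in the knockout clone. Over all tested rows 8.63% had such a p, 5.05% with a lower value. GAS5, the host gene of several small nucleolar RNAs, stood at -0.37 (SE 0.22). CYTOR had the smallest adjusted p of the list, at 179 ± 48.3 normalized counts in the knockout clone (SD, n = 5) and 418 ± 145 in the control clone (SD, n = 4), with a log2 fold change of -1.20 (SE 0.26, limma adjusted p = 0.12). Its libraries did not overlap between the clones, as was so for 3.95% of all tested rows.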

How the data were processed

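The submitters' processing notes list kallisto, fastp and DESeq2 and the build hg38, without versions or an annotation release. The authors deposited normalized counts, a signal made of gene counts divided by 1 size factor per library, and 100% of values were whole multiples of 1 read (tolerance 1e-06), so reads were recovered by division. Their log2 fold change, test score, p-value and mean stand in the same deposited table, and 0 further per-sample columns were present.

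Rows were kept by filterByExpr (minimum count 10) on recovered reads. The main test was limma 3.58.1 (R 4.3.3) with a trend on log2(value + 1), all 9 libraries, Benjamini-Hochberg over 27777 rows. Alternatives were edgeR 4.0.16 (151 calls on recovered reads) and DESeq2 1.42.0. In data simulated for knockout against control over 27777 rows, 69% of 100 genes changed by 2 on the log2 scale and 9% of 100 changed by 1 were recovered, with 3 false calls. Simulated counts were drawn independently for each row and library, so movements shared by many rows were not simulated. Changes were planted only in rows averaging 50 or more normalized counts, above the 33.9 of KCNQ1OT1. Labels file the replicate number under batch, so it was taken as pairing libraries. Whether same-numbered libraries of the clones were grown or prepared together is not known here. Deviations of same-numbered libraries correlated at 0.06, 0.01, 0.28 and 0.36 for numbers 1 to 4. The block leaves knockout 5 without a partner. GENCODE 29 gave positions and lengths, matched on Ensembl IDs without version. The members, lists and tests were chosen with earlier results of these data known. Named genes were the 7 members, up to 4 genes per list by call and then mean, neighbours within 50 kb and the 3 nearest profiles; FAM98A, ZSWIM8, CDKN1C, PHLDA2, EZH2, CYTOR and LINC-ROR fall outside that rule and were named for their role or p-value after their values were seen.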

Additional observations from a re-analysis of the deposited data

How the results depend on the processing

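The 7 RNAs had 139 values under alternative settings, of which 129 kept their sign and side of the threshold, 10 turned sign and 0 passed (lowest adjusted p = 0.16, for MIAT with the replicate block). KCNQ1OT1 has no value in the fit of rows with a mean of at least 50. Under protein-coding scaling TUG1 stood at 0.067 and NORAD at 0.0941, and under quantile normalization at 0.03 and 0.0949. NORAD stood at 0.0059 without both libraries numbered 3. With 1 library left out NEAT1 ran from -0.15 (without control 3) to 0.38, passing -0.0012 without control 2 and -0.04 without knockout 2, KCNQ1OT1 from -0.10 to 0.56 and NORAD from -0.30 to 0.037 (without control 3), the cause of which was not tested. MALAT1 ran from 0.31 (without control 3) to 0.84, MIAT from 0.60 to 1.00, TUG1 from -0.21 to -0.03 (without control 3) and OIP5-AS1 from -0.36 (without control 4) to -0.13. MALAT1 had an unadjusted limma p under 0.05 in 3 settings, with the block (0.034), without control 1 (0.048) and without knockout 3 (0.039). The count over all rows was 150, and it was 781 with DESeq2, 43 with the replicate block and 79 to 186 with 1 library left out, and it was over 1.5 times lower when control 1 (93), control 2 (80), control 3 (94), knockout 2 (95), knockout 4 (79) or knockout 5 (80) was left out. The block changed no call among the 7. NEAT1 had 64 to 212 reads per library and KCNQ1OT1 13 to 71. The SE of NEAT1 (0.36) was no larger than that of MALAT1 (0.38), which had 9607 to 37263 reads, and the part of depth in these errors was not tested.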
